A study of Mus musculus with 2 samples.

Results

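The cells described here are Pbx3-positive GABAergic neurons of the newborn mouse forebrain. They were picked by their counts of unique molecules (UMIs, each standing for 1 captured messenger RNA). A member had 2 or more UMIs of Pbx3, at least 1 of Dlx6os1, at least 1 of Gad1 or Gad2, and at most 1 of Foxp1. It had none of Lhx6, Sp8, Isl1, Six3, Mki67, Top2a and Neurod6, which set aside other GABAergic lineages, dividing cells and excitatory neurons. Members numbered 902 of 26178 cells from Gmnc-/- animals and 364 of 10938 cells from wild-type animals, after cells under 1000 UMIs or with 10% or more mitochondrial UMIs were left out. Since measured counts chose the members, their Pbx3 level and the absence of those genes describe the choice.

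The 2 groups were C57BL/6J pups at postnatal day 0. One was Gmnc-/-, without the geminin-family regulator that starts the multiciliated cell programme, and the other was wild-type littermates. For each genotype the dorsal and lateral cortex with the hippocampus of 4 animals, taken from 2 litters, went into 1 pool and 1 library of droplet 3-prime RNA sequencing, per the labels. Cells cannot be assigned to animals, so neither genotype has a replicate and no test was possible. Intervals below are at 95%, exact, and cover counting error only.

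Pbx3 is a homeodomain protein of the TALE class, which binds DNA together with Meis and Hox proteins. Dlx6os1 is a long noncoding RNA transcribed across Dlx6, and Gad1 and Gad2 encode the enzymes that make GABA. Neurons born in the dorsal part of the lateral ganglionic eminence share Meis2, Pbx and Tshz1 expression. They go to the olfactory bulb or, together with Foxp2, to the intercalated cell masses of the amygdala, which border the lateral cortex.

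The members held 3358905 UMIs in the Gmnc-/- library and 1249227 in the wild-type library, with medians of 3275.5 and 2502.5 UMIs and of 1756 and 1438.5 detected genes per cell. The median mitochondrial share was 1.13% in Gmnc-/- members and 4.08% in wild-type members. A doublet caller marked 148 Gmnc-/- members (16.4%) and 10 wild-type members (2.75%), and these were kept unless stated. A female pattern (Xist and no Y-linked UMI) was found in 45.1% of Gmnc-/- and 72.5% of wild-type members, so sex balance moves with genotype and its part in the results was not tested beyond the values without each pattern. The libraries shared 67 barcodes among all cells kept and 0 among members.

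The markers named with these cells were partly above their level in other GABAergic cells. Those cells had the same Dlx6os1 and Gad1 or Gad2 UMIs, no Mki67, Top2a or Neurod6, and did not pass the rest of the rule; there were 3019 in the Gmnc-/- and 1187 in the wild-type library. Levels are given as CPM, the UMIs of a gene per 1000000 UMIs summed over the cells of a group. Adarb2, a catalytically inactive relative of the RNA-editing enzymes, had 3752 CPM in Gmnc-/- members against 1535 CPM in other Gmnc-/- GABAergic cells, and 3424 CPM in wild-type members against 1372 CPM in the other wild-type cells. Cells that passed the rule but for having 1 Pbx3 UMI had 2739 and 2017 CPM, and those with none had 1791 and 1979 CPM. The excess of Adarb2 was short of 2-fold over the former in both libraries, and over the latter in the wild-type library. Prokr2, the receptor for the migration cue prokineticin, stood at 47.6 and 46.5 CPM in Gmnc-/- and wild-type members, and at 22.0 and 24.3 CPM in the other cells. Grik3, a kainate receptor subunit, differed less, with 248 and 195 CPM in Gmnc-/- and wild-type members against 172 and 160 CPM in the other cells. GABAergic identity was shared with the comparison cells. Slc32a1, the vesicular GABA transporter, had 78.3 and 63.3 CPM in Gmnc-/- and wild-type members and 74.7 and 75.2 CPM in the other cells.

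Besides the genes that chose them, the genes highest in members over other GABAergic cells included 2 forkhead factors, 3 receptors and 2 potassium channels. Of 3523 genes at 50 CPM or more in members of both libraries, 9 (0.255%) were 2-fold or more above the other GABAergic cells in both libraries. Of 3644 genes measured in the other cells, 20 (0.549%) were 2-fold or more lower in members. Pbx3 itself is among the 9, by the rule. Foxp2, a forkhead repressor on chromosome 6 (14901349 to 15441977, GRCm38), had 1493 CPM in Gmnc-/- members against 495 CPM in other Gmnc-/- cells, and 1891 CPM in wild-type members against 518 CPM in the other wild-type cells. Foxp4, a second forkhead repressor, had 201 and 194 CPM in Gmnc-/- and wild-type members against 67.7 and 55.1 CPM in the other cells. Tshz1, a zinc finger factor needed for olfactory bulb neurons and intercalated amygdala cells, had 377 and 533 CPM against 171 and 211 CPM. Each of these genes was thus higher in the members of both libraries than in the pooled other GABAergic cells of either library. In cells with Isl1 or Six3, Foxp2 had 868.5 and 1066 CPM in the Gmnc-/- and wild-type libraries. Foxp4 had 101 and 103 CPM there, and Tshz1 240 and 363 CPM. The excess of these genes over that class was thus short of 2-fold.

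The remaining leading genes act at the membrane or at the synapse. Erbb4, the neuregulin receptor that guides migrating GABAergic neurons, had 5608 and 6091 CPM in Gmnc-/- and wild-type members against 2880 and 2537 CPM in the other cells. It was higher still in Lhx6-positive cells, at 7726 and 6638 CPM in the Gmnc-/- and wild-type libraries, so its excess holds against the pool and not against every GABAergic class. Kcnd2, a subunit of A-type potassium channels, had 1141 and 1370 CPM against 572 and 474 CPM. In cells with Isl1 or Six3 it stood at 921 and 1086 CPM, so its excess over that class was short of 2-fold. Grm8, a presynaptic glutamate receptor, had 112 and 144 CPM against 38.1 and 34.4 CPM. March3, a membrane ubiquitin ligase, Ntng1, a membrane-anchored netrin, Kcnn2, a calcium-activated potassium channel, and Epha6, an ephrin receptor, completed the 12 leading genes. Ranked by the library with the smaller excess, the last of the 12 was Epha6, with a log2 ratio of 0.92 to the other cells, so some of them are short of 2-fold. Epha6 had 172 and 255 CPM in members, against 157 and 178 CPM in Isl1 or Six3 cells and 168 and 158 CPM in Lhx6-positive cells. C79798 led the order, with 165 and 215 CPM in Gmnc-/- and wild-type members against 37.2 and 44.2 CPM in the other cells. It lies on chromosome 2 (34287771 to 34304440, plus strand) inside Pbx3 (34171457 to 34373142, minus strand). Its counts and those of Pbx3 cannot be told apart if strand was not used in counting, which is not given in the sources used here.

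**Figure D1:**
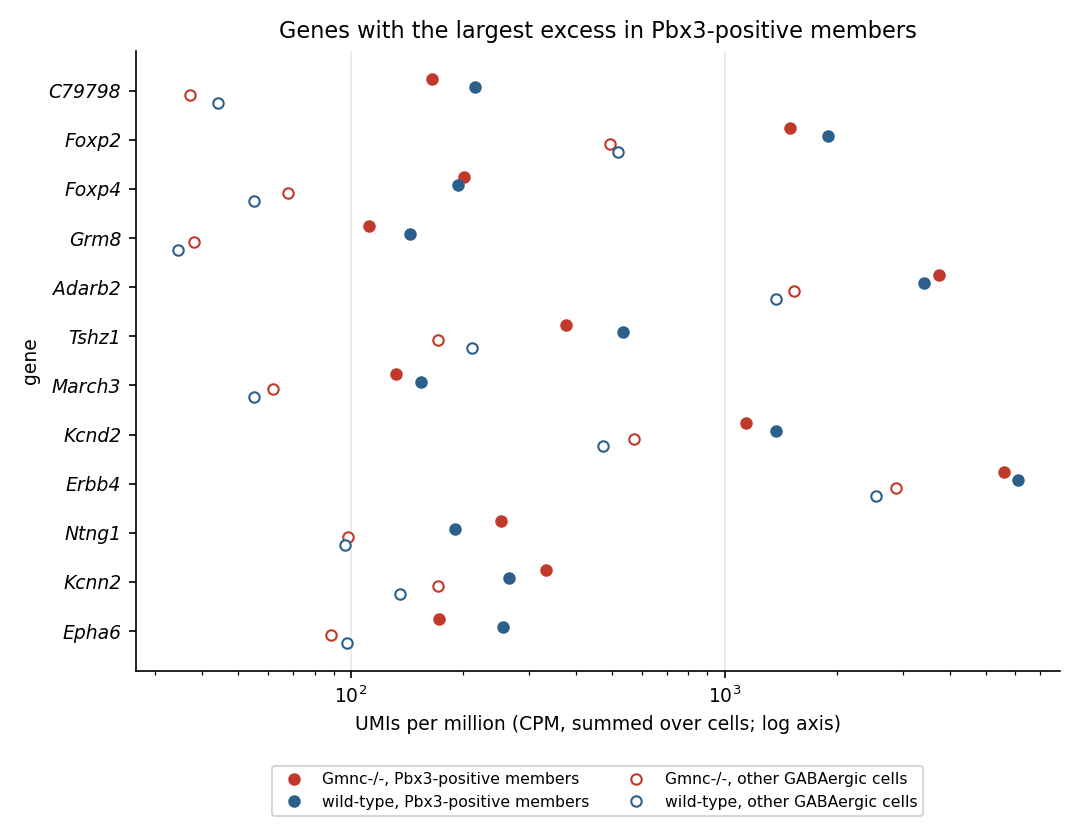
Level of the 12 leading genes in Pbx3-positive members (filled) and other GABAergic cells (open), in CPM on a log axis, Gmnc-/- in red and wild-type in blue, 1 library each. For each gene both filled points lie to the right of both open points, as for Foxp2 at 1493 and 1891 CPM against 495 and 518 CPM.

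Further genes of the dorsal lateral ganglionic eminence differed less from the other GABAergic cells than Foxp2 and Tshz1, or were lower in members. Meis2, a TALE partner of Pbx proteins, had 3805 and 3550 CPM in Gmnc-/- and wild-type members against 3061 and 2884 CPM in the other cells. Sp9, a zinc finger factor of young GABAergic neurons, had 351 and 358 CPM against 341 and 372 CPM. Synpr, a synaptic vesicle protein of olfactory bulb neuroblasts, had 59.0 and 39.2 CPM against 97.8 and 113 CPM. Genes of mature destinations were at or near 0. Scgn, a calcium-binding protein of olfactory bulb neurons, had 0 UMIs in both libraries. Th, the dopamine synthesis enzyme, had 2 UMIs in Gmnc-/- members and 0 in wild-type members, and Penk, which encodes enkephalins, had 3 and 2 UMIs. Bcl11b, used by striatal projection neurons and others, had 265 and 387 CPM in Gmnc-/- and wild-type members, below 913 and 1118 CPM in cells with Isl1 or Six3.

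Foxp2, Tshz1 and Kcnd2 rose with the Pbx3 UMIs of members, and differed less across the Pbx3 threshold itself. Cells with 1 Pbx3 UMI that otherwise passed the rule (239 in the Gmnc-/- and 75 in the wild-type library) had 441 and 561 CPM of Foxp2, and cells with none (653 and 208) had 151 and 186 CPM. Members with exactly 2 Pbx3 UMIs, 159 Gmnc-/- and 50 wild-type cells, had 542 and 738 CPM of Foxp2. Members with 10 or more Pbx3 UMIs, 205 and 110 cells, had 2205 and 2656 CPM. Tshz1 showed the same order, with 164 and 203 CPM at 2 Pbx3 UMIs and 589 and 766 CPM at 10 or more. Kcnd2 spanned 400 to 1871 CPM in Gmnc-/- members and 372 to 2570 CPM in wild-type members between those groups. In cells with 1 Pbx3 UMI, Tshz1 had 137 and 145 CPM and Kcnd2 445 and 272 CPM. Kcnd2 was thus not lower there than at 2 Pbx3 UMIs in the Gmnc-/- library. Etv1, an ETS factor of olfactory bulb neurons, did not follow: it had 193 and 141 CPM at 2 Pbx3 UMIs and 142 and 109 CPM at 10 or more. Depth moved with the grouping, since the median UMI count was 2936 and 2190 at 2 Pbx3 UMIs and 3854 and 3542 at 10 or more. The median member had 5 Pbx3 UMIs in the Gmnc-/- and 6.5 in the wild-type library.

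**Figure D2:**
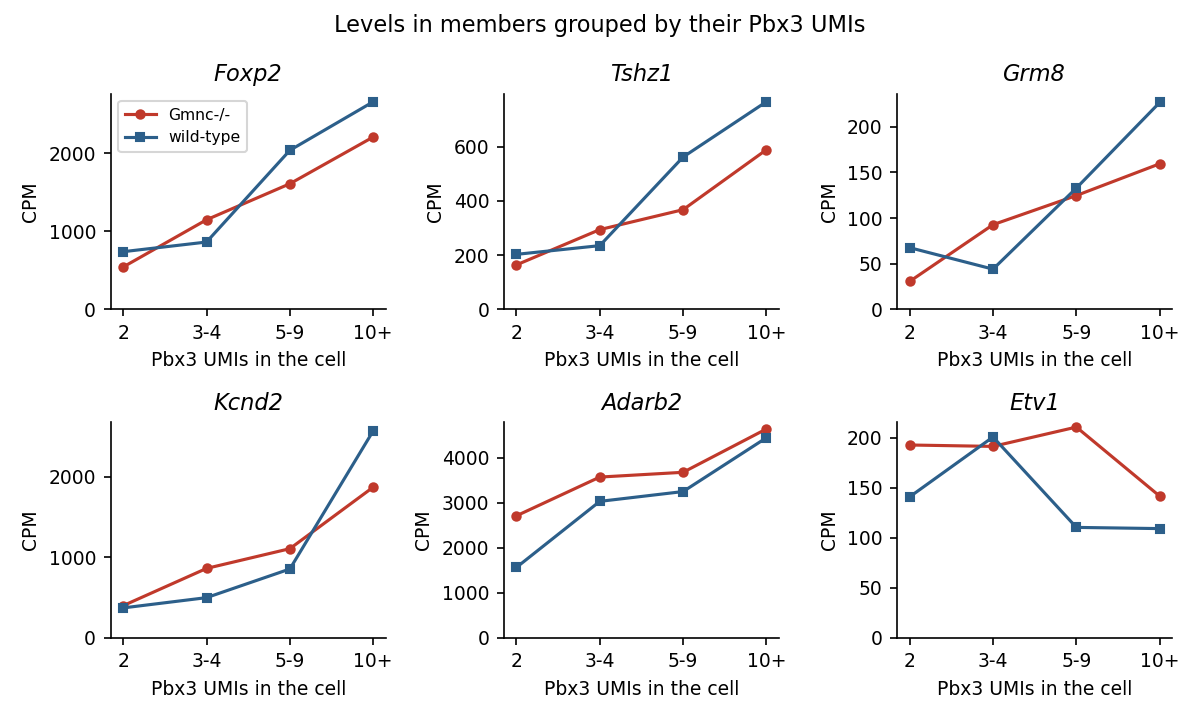
CPM of 6 genes in members grouped by their own Pbx3 UMIs (horizontal axis), Gmnc-/- in red circles and wild-type in blue squares, with 50 to 327 cells per point. Foxp2, Tshz1 and Kcnd2 are highest at 10 or more Pbx3 UMIs in both libraries, whereas Etv1 is lower there than at 2.

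The members were not uniform. Sorted by detected genes, in a fixed order, 268 Gmnc-/- members (29.7%) and 100 wild-type members (27.5%) had Nr2f2 or Prox1, which mark caudal ganglionic eminence cells. A further 218 (24.2%, interval 21.4 to 27.1%) and 56 (15.4%, 11.8 to 19.5%) had Etv1 without those. Foxp2 together with Tshz1, and none of the genes before, was found in 251 (27.8%, 24.9 to 30.9%) and 134 (36.8%, 31.8 to 42.0%). The rest had only one of Foxp2 and Tshz1 (12.4% of Gmnc-/- and 14.0% of wild-type members) or none of the 5 genes (5.88% and 6.32%).

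These subsets carried different companion genes, alike in both libraries. In cells with Foxp2 and Tshz1, Kcnd2 stood at 2518 CPM in the Gmnc-/- and 2850 CPM in the wild-type library, against 594 and 520 CPM in the Etv1 subset. Oprm1, the mu opioid receptor found in intercalated amygdala cells, had 34.2 and 33.1 CPM there against 1.13 and 0 CPM in the Etv1 subset. It was not particular to cells with both genes, since members with only 1 of Foxp2 and Tshz1 had 30.2 and 25.3 CPM. Oprm1 was detected in 3.55% of Gmnc-/- and 3.85% of wild-type members. Grm8 had 171 and 317 CPM in cells with Foxp2 and Tshz1 against 92.9 and 95.5 CPM in the Etv1 subset. Grik3 ran the other way, with 162 and 118 CPM against 304 and 339 CPM in the Etv1 subset. Of Gmnc-/- members with an Etv1 UMI, 60.9% also had Grik3, and of those without it 38.8%; the wild-type shares were 60.5% and 37.1%. Npas3, a transcription factor of caudal interneurons, had 981 and 879 CPM in the Nr2f2 or Prox1 subset against 182 and 61.5 CPM in the Foxp2 and Tshz1 subset. It was not particular to the former, since members with none of the 5 genes had 1272 and 891 CPM. Prokr2 had 60.0 and 100 CPM in the Etv1 subset, 63.4 and 52.0 CPM in the Foxp2 and Tshz1 subset, and 31.3 and 20.1 CPM in the Nr2f2 or Prox1 subset. Adarb2 was lowest of the 5 subsets in the Etv1 subset, where Grik3 was highest, with 2697 and 2091 CPM against 4130 and 3505 CPM in Foxp2 and Tshz1 cells.

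The Foxp2 and Tshz1 subset made up less of the Gmnc-/- members than of the wild-type members, by a ratio of 0.756 (0.611 to 0.939). After every member was thinned to 1000 UMIs, the shares were 18.4% in the Gmnc-/- and 29.1% in the wild-type library, a ratio of 0.632 (0.492 to 0.814). Without doublet calls they were 29.7% (26.5 to 33.1%) and 37.0% (32.0 to 42.3%), and these intervals overlap. The subset leaves out cells with an Etv1 UMI, which 34.0% of Gmnc-/- and 22.25% of wild-type members had. Its share is therefore not independent of Etv1 detection. Tshz1 alone was detected in 27.5% of thinned Gmnc-/- and 37.1% of thinned wild-type members, against 4.75% and 4.57% of thinned cells with 3 or more microglial markers (632 and 394 cells, with median depths of 6868.5 and 11377 UMIs), which should lack it. Unthinned, it was in 54.5% of Gmnc-/- and 59.3% of wild-type members. The Etv1 subset went the other way, with a ratio of 1.57 (1.17 to 2.15), and 1.57 (1.05 to 2.44) when thinned. Etv1 was, though, detected in 9.65% and 9.39% of thinned microglial-marker cells, close to the 9.89% of thinned wild-type members and below the 13.5% of thinned Gmnc-/- members. The wild-type Etv1 subset nevertheless carried the companion genes given above, so its share is given here without reading a difference between genotypes from the thinned values.

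**Figure D3:**
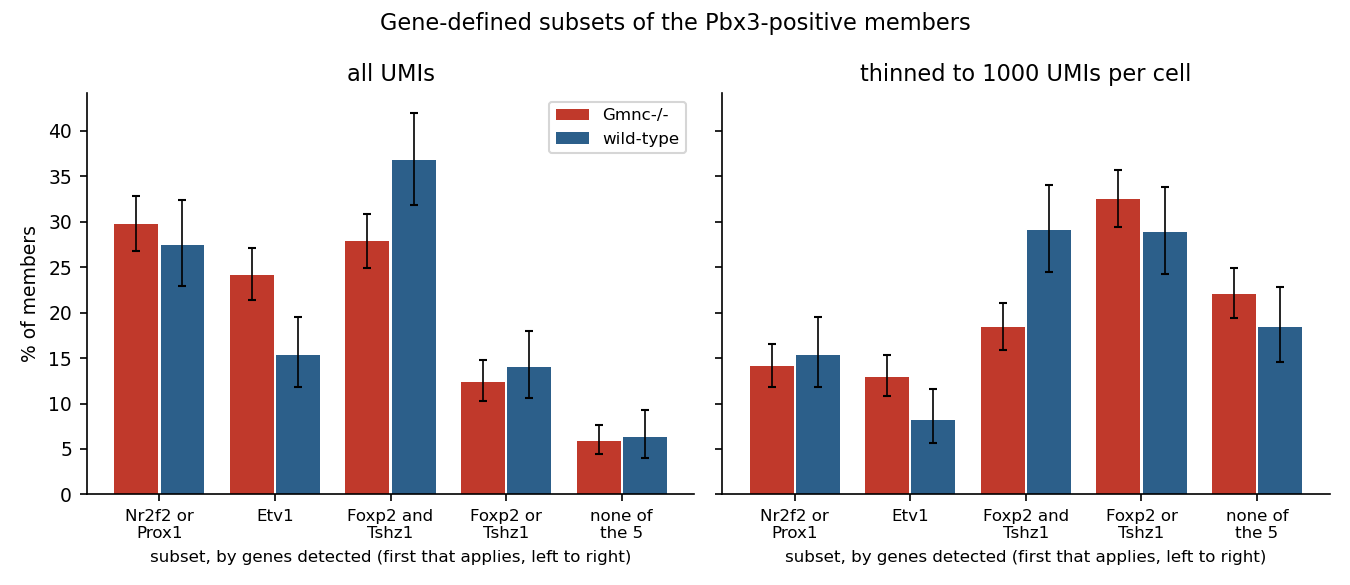
Share of Pbx3-positive members in 5 gene-defined subsets, Gmnc-/- in red to the left of wild-type in blue, with all UMIs (left) and with each cell thinned to 1000 UMIs (right). Bars are percent of members and whiskers are exact 95% binomial intervals, which cover counting error only. The Foxp2 and Tshz1 bar is lower in Gmnc-/- members in both panels, 27.8% against 36.8% and 18.4% against 29.1%.

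As a whole the Pbx3-positive neurons were about as frequent in both genotypes. They made up 3.45% (3.23 to 3.67%) of cells in the Gmnc-/- library and 3.33% (3.0 to 3.68%) in the wild-type library, a ratio of 1.04 (0.916 to 1.17). Among GABAergic cells they were 23.0% and 23.5%, a ratio of 0.980 (0.867 to 1.11). The ratio was 0.972 among female-pattern and 0.963 among male-pattern cells. Sp8-positive GABAergic cells, for comparison, had a ratio of 0.828 (0.737 to 0.932). Cells with 0 or 1 Pbx3 UMI that otherwise passed the rule had ratios of 1.31 (1.12 to 1.54) and 1.33 (1.02 to 1.75). With the minimum set at 1 or at 3 Pbx3 UMIs, the ratio of the member share was 1.09 (0.972 to 1.215) and 0.989 (0.865 to 1.13). With a minimum of 2000 UMIs and under 5% mitochondrial UMIs, the share of the Pbx3-positive cells was 3.17% in the Gmnc-/- and 2.55% in the wild-type library, a ratio of 1.25 (1.06 to 1.47).

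Few genes differed 2-fold between the genotypes within the members. Of 4209 genes that reached 50 CPM in the members of at least 1 library, 47 (1.12%) were 2-fold or more higher and 33 (0.784%) 2-fold or more lower in Gmnc-/- members, after 5 CPM were added to both values. The same counts in the other GABAergic cells were 12 of 4258 higher (0.282%) and 35 lower (0.822%). Between the 2 comparisons, 5 of the higher genes (5 of 47 and 5 of 12) and 22 of the lower genes (22 of 33 and 22 of 35) were shared. The median log2 ratio over all measured genes was 0.09 in members. With median-of-ratios scaling, which divides by a factor of 1.07, the split in members was 38 higher and 42 lower. Long genes had higher ratios: the median was -0.13 over 727 genes that span under 10 kb and 0.19 over 347 genes that span 300 kb or more, and in the other GABAergic cells the rank correlation of ratio with span was 0.455 over 4206 genes, against 0.312 in members.

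With all members, Foxp2, Tshz1 and Etv1 differed between the genotypes by less than 2-fold. Of 9 measured genes of the dorsal lateral ganglionic eminence and amygdala list that the rule did not use, 0 were 2-fold higher and 0 were 2-fold lower, and the median log2 ratio was 0.00. Over all measured genes the shares were 1.12% higher and 0.784% lower, so the count says nothing particular to the list. Tshz1 was lower in Gmnc-/- members, with a ratio of 0.707 (0.643 to 0.777), and Foxp2 likewise, with 0.790 (0.752 to 0.829). In male-pattern members (180 Gmnc-/- and 48 wild-type) Tshz1 had 273 and 684 CPM, a log2 ratio of -1.31, which is past 2-fold. Foxp2 was at -0.88 there. Among female-pattern members Tshz1 was at -0.52 and Foxp2 at -0.36. Etv1 had 185 CPM in Gmnc-/- and 129 CPM in wild-type members, a ratio of 1.44 (1.21 to 1.72). Pbx3 had 1880 and 2608 CPM in Gmnc-/- and wild-type members, and 2224 and 2706 CPM without doublet calls. In the other GABAergic cells it had 455 and 603 CPM. The rule used Pbx3 to divide members from the other cells, so no genotype difference is read from these values. The 5 measured TALE genes besides Pbx3, Meis2 among them, had 0 calls and a median log2 ratio of 0.12.

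Core GABAergic genes included 1 pair that differed in opposite directions. Dlx1, a homeobox gene of GABAergic development, had 569 CPM in Gmnc-/- and 323 CPM in wild-type members, a ratio of 1.76 (1.58 to 1.97). Dlx2, its neighbour and partner, had 144 and 263 CPM, a ratio of 0.546 (0.474 to 0.631). Both had like values in the other GABAergic cells, where Dlx1 had 526 CPM in the Gmnc-/- and 302 CPM in the wild-type library and Dlx2 had 124 and 262 CPM. Without doublet calls Dlx1 passed 2-fold in members, with 695 and 335 CPM. The antisense gene Dlx1as overlaps Dlx1, and its reads may not be told apart from those of Dlx1. Of 7 measured pan-GABAergic genes outside the rule, 0 were 2-fold higher and 0 lower, with a median log2 ratio of -0.02. Over all measured genes the shares were 1.12% higher and 0.784% lower, so this count says nothing particular to the list.

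**Figure D4:**
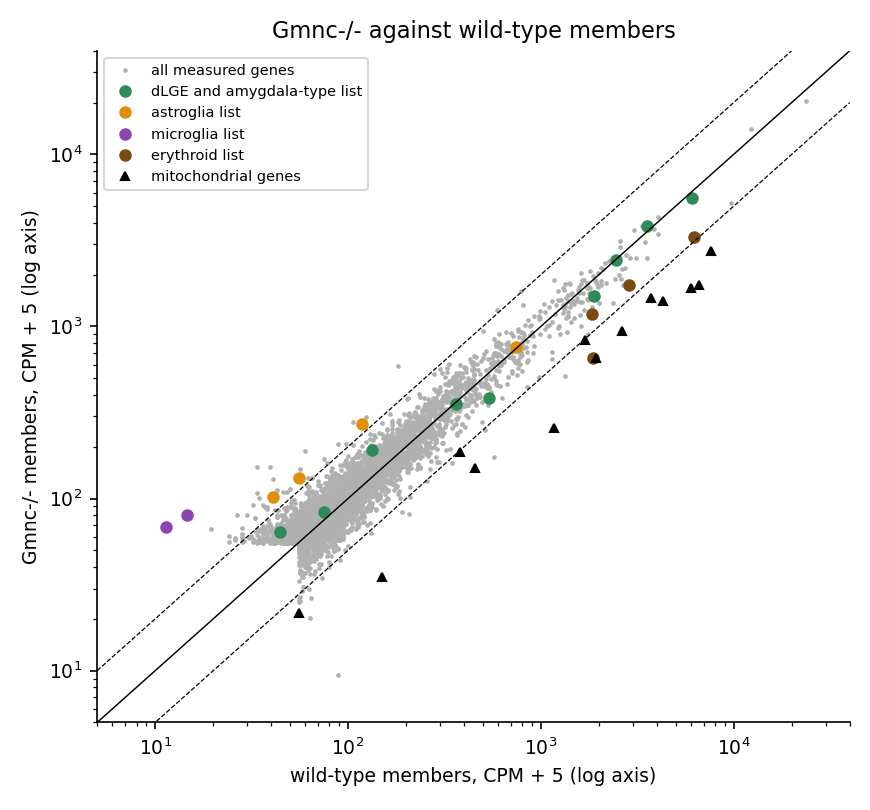
CPM + 5 of each of 4209 measured genes in Gmnc-/- members (vertical, log axis) against wild-type members (horizontal, log axis). The solid line is equality and the dashed lines are 2-fold. Green genes of the dorsal lateral ganglionic eminence and amygdala list lie within 2-fold, microglia genes and 3 of the 4 astroglia genes lie above, and all 13 mitochondrial genes lie below.

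The genes highest in Gmnc-/- members included 2 complement genes of microglia and several genes known from astroglia. C1qa and C1qb, complement genes of microglia, had 63.4 and 75.3 CPM in Gmnc-/- members against 6.41 and 9.61 CPM in wild-type members. Apoe, the lipid carrier made by astrocytes and microglia, had 586 against 176 CPM, and Sparcl1 and Tnc, matrix proteins of astroglia, had 148 against 34.4 CPM and 183 against 54.5 CPM. Ctsd, Grm3, Mfge8, Ptprk and Sparc ranked with them, at ratios of 3.20 to 5.10. Of the 12 highest genes 11 had 70.0 to 92.1% of their Gmnc-/- UMIs in cells called doublets. Of the astroglia list, 3 of 4 measured genes were 2-fold higher (median log2 1.22, against 0.09 over all genes, of which 1.12% were higher), and its summed level over 8 genes was 1307 CPM in Gmnc-/- and 972 CPM in wild-type members. The microglia list had 2 of 2 measured genes higher and sums of 220 and 32.8 CPM over 6 genes, with Tmem119 at 0 in wild-type members. Without doublet calls, C1qa had a log2 ratio of 0.34 and Apoe of 0.24, and the count of higher genes was 10 in place of 47, with 4 genes in both.

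Filip1l was the exception among the 12. This gene, a relative of filamin-interacting proteins, had 125 CPM in Gmnc-/- and 36.0 CPM in wild-type members, a ratio of 3.46 (2.54 to 4.82). It had 20.5% of its Gmnc-/- UMIs in doublet calls, a log2 ratio of 1.84 without them and of 1.57 in the other GABAergic cells, and stayed past 2-fold under 17 of 17 alternatives. Cmss1, which overlaps it on the opposite strand, had 543 and 793 CPM, and reads of the pair may not be told apart. Cplx2, a complexin of the release machinery, and Paxbp1, a Pax-binding protein, were the other named genes past 2-fold with and without doublet calls. They had 81.3 and 217 CPM in Gmnc-/- against 29.1 and 83.9 CPM in wild-type members without the calls. These last 2 were picked after their values were seen.

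Mitochondrially encoded genes made up 13 of the 33 lower genes in Gmnc-/- members. All 13 measured mitochondrial genes were 2-fold or more lower, with log2 ratios between -2.20 and -1.01, and 10 of them were so in the other GABAergic cells as well. Cdk8, a kinase of the Mediator complex, had 168 CPM in Gmnc-/- against 564 CPM in wild-type members, a ratio of 0.298 (0.267 to 0.334). Its log2 ratio was -1.67 in the other GABAergic cells, and it stayed past 2-fold under 17 of 17 alternatives. Snrpf and Lsm5, both proteins of RNA splicing or decay complexes, had 78.6 and 24.7 CPM against 186 and 57.7 CPM. Lars2, a mitochondrial leucyl-tRNA synthetase, had 76.2 against 201 CPM, and the chromatin protein gene Hmgn2 had 156 against 343 CPM. Btf3, Dpm1, Fdps and Cd1d1 completed this set with ratios of 0.362 to 0.478. Of 17 alternatives, Hmgn2 was past 2-fold in 10, Lsm5, Cd1d1 and Btf3 in 11 each, and Lars2, Dpm1, Snrpf and Fdps in 16 each. For these 8 genes the other GABAergic cells of the Gmnc-/- library were lower too, at log2 ratios of -1.26 to -0.85.

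Ttr and Reln, also among the 12 lowest, had over 50% of their wild-type UMIs in 1 cell. Ttr, the transthyretin of choroid plexus, had 15 UMIs in Gmnc-/- and 104 UMIs in wild-type members, of which 63 lay in 1 wild-type cell. Without the top cell of each library its log2 ratio was -2.15, still past 2-fold, and in male-pattern members, with 3 Gmnc-/- UMIs and 1 wild-type UMI, it was -0.34. Reln, the secreted guidance protein of Cajal-Retzius cells and of some interneurons, had 51 UMIs in 24 Gmnc-/- members and 73 UMIs in 27 wild-type members, of which 41 lay in 1 wild-type cell. Without the top cells it had 11.03 CPM in Gmnc-/- and 25.8 CPM in wild-type members, a log2 ratio of -0.94, which is short of 2-fold. Members holding genes of another class had 41.2% of its Gmnc-/- and 82.2% of its wild-type UMIs. With doublet calls and such members left out, erythroid genes not counted, Reln had 17.85 and 19.2 CPM, a log2 ratio of -0.08. Reln is itself on the Cajal-Retzius list, so that removal is not independent of it. In the other GABAergic cells Reln had 10.4 CPM in the Gmnc-/- and 79.4 CPM in the wild-type library.

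**Figure D5:**
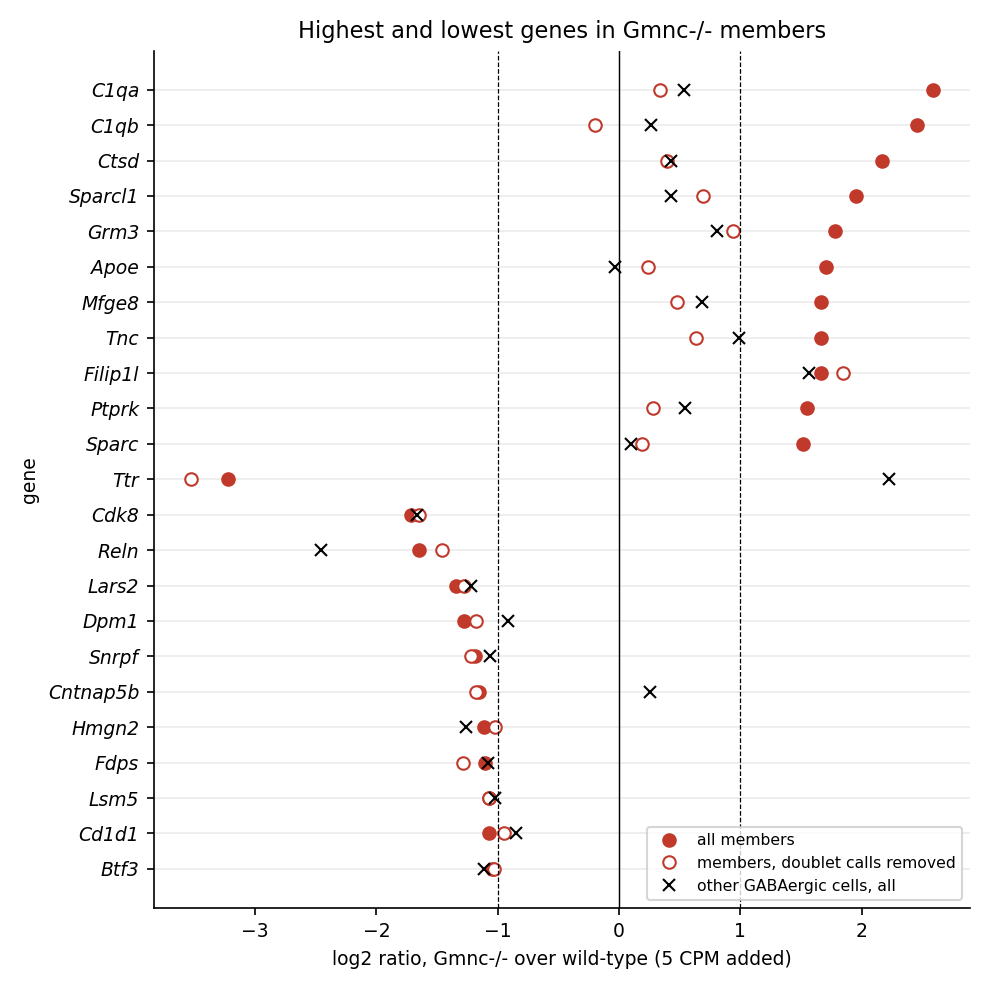
Log2 ratio, Gmnc-/- over wild-type, of 11 of the 12 highest genes and of the 12 lowest genes in members with all cells (filled), in members without doublet calls (open) and in other GABAergic cells (crosses), with dashed lines at 2-fold. For 10 of the 11 highest genes shown the open point lies below the dashed line at 1, and Filip1l alone stays above it at 1.84.

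Genes that receive the Reelin signal were measured in the members. Lrp8, a Reelin receptor, had 223 CPM in Gmnc-/- and 134 CPM in wild-type members, a ratio of 1.67 (1.41 to 1.99), and 210 and 126 CPM in the other cells. Vldlr, the second receptor, had 64.6 and 61.7 CPM, a ratio of 1.05 (0.804 to 1.38). Dab1, the intracellular adaptor, had 155 and 72.9 CPM, a ratio of 2.13 (1.70 to 2.69), and without doublet calls 111 and 56.5 CPM, which is short of 2-fold. Of the 7 measured genes of this pathway 1 was 2-fold higher and 1, Reln, 2-fold lower. Over all measured genes the shares were 1.12% higher and 0.784% lower, and counts this small say little about the list. Gmnc had 0 UMIs in members of both libraries, which allows up to 3 counts in each, so the deleted gene cannot serve as a check of the labels in these cells.

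The share of genes called in the lists of migration, receptors and maturation is set against 1.12% higher and 0.784% lower over all measured genes, so that a count of 0 in a short list is no result about it. Of 19 measured migration and guidance genes 3 were higher (Unc5d, a netrin receptor, Sema3c, a secreted semaphorin, and Nrg1, a ligand of Erbb4) and 0 lower, with a median log2 ratio of 0.22. Nrg1 had 1602 CPM in Gmnc-/- and 783 CPM in wild-type members, and 640 and 579 CPM without doublet calls. Unc5d had 294 and 119 CPM with all members, and 107 and 82.2 CPM without those calls. Sema3c had 54.2 and 20.8 CPM with all members, and 22.9 and 17.1 CPM without the calls, a log2 ratio of 0.34, so none of the 3 was past 2-fold without them. Dcx, the microtubule protein of migrating neurons, had 1018 and 887 CPM. Of 9 measured GABA receptor and chloride transporter genes 0 were higher and 0 lower, with a median of 0.00. Of 13 maturation genes and 10 genes of young neurons 0 passed 2-fold, with medians of 0.21 and -0.01. Of 4 measured immediate early genes 2 were higher, Fos with 84.0 and 32.0 CPM and Egr1 with 108 and 37.6 CPM, but without doublet calls Fos had 25.4 and 25.7 CPM and Egr1 44.6 and 31.7 CPM.

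RNA of other cell classes was present in members of both libraries. UMIs of 2 or more astroglia genes were found in 170 Gmnc-/- members (18.8%) and 39 wild-type members (10.7%), and those of 2 or more excitatory neuron genes in 83 (9.20%) and 12 (3.30%). Haemoglobin and related genes were found in 299 (33.1%) and 129 (35.4%). With doublet calls and members holding 2 or more genes of another class left out, erythroid genes not counted, 657 Gmnc-/- and 309 wild-type members were left, with 17 genes 2-fold higher and 36 lower.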

How the data were processed

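Counts of UMIs per gene and barcode were deposited by the authors for each library, with Cell Ranger 7.1.0 and mm10 named in the submitters' processing notes. Whether strand was used, and any filter by the authors, is not given in the sources used here. The rule asked for at least 1000 UMIs and less than 10% mitochondrial UMIs per cell, which left 26178 Gmnc-/- and 10938 wild-type cells. Doublets were called per library with Scrublet in scanpy 1.11.5, which marked 4994 Gmnc-/- cells (19.1%, with 22.1% expected) and 460 wild-type cells (4.21%, with 10.4% expected). They stayed in, and were removed as an alternative. CPM were computed from counts summed over the members of a library. Log2 ratios are Gmnc-/- over wild-type with 5 CPM added, so ratios of low genes are understated. A gene counted as called at 2-fold, with 50 CPM or more in either library. Shares have Clopper-Pearson intervals and ratios exact conditional intervals. Thinning drew a fixed number of UMIs per cell without replacement. Gene spans and positions came from GENCODE M21 (GRCm38).

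Genes were named from the lists written down for these cells, with the 12 highest and 12 lowest log2 ratios between genotypes and the 12 with the highest excess over other GABAergic cells in both libraries. Haemoglobin, mitochondrial, ribosomal protein, histone, Xist, Y-linked and predicted genes and those of the rule were left out of these ranks; values of some genes are not reported here. The members, the lists and the rules were chosen with earlier results of these data known. Simulated sums of the members, with counting error only, served as a test. It recovered 200 of 200 genes changed 3-fold and called 0 of 3808 unchanged ones. The simulated sums held no spread among cells and no doublets, so the test says nothing about false calls from those. Alternatives covered cell filters, doublets, the Pbx3 and Foxp1 thresholds, depth, sex pattern, cells with genes of another class, scaling, averaging, the added CPM and the expression minimum. SciPy 1.17.1 and NumPy 2.4.6 were used.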

Additional observations from a re-analysis of the deposited data

Results flagged for a closer look

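Some genes differed between the genotypes in opposite directions in Pbx3-positive members and in the other GABAergic cells, by 2-fold or more between the 2 ratios and with both counting intervals to either side of 1. With 1 library per genotype the difference was not tested. Gabrg3, a GABA receptor subunit, had 47.6 CPM in Gmnc-/- and 95.3 CPM in wild-type members, a log2 ratio of -0.93, and 116 and 82.5 CPM in the other cells. Without doublet calls Gabrg3 had 50.4 and 102 CPM in members. It was likewise lower in the Gmnc-/- library among cells that passed the rule but for having no Pbx3 UMI (42.9 and 75.3 CPM) or 1 (23.7 and 61.4 CPM), and higher among Isl1 or Six3 cells (148 and 79.98 CPM). Cntnap5b, a contactin-associated protein gene, had 19.95 and 50.5 CPM in members, a log2 ratio of -1.15, and 118 and 97.9 CPM in the other cells. The pooled other cells were not alike in Cntnap5b: it was lower in the Gmnc-/- library, as in members, among those cells without a Pbx3 UMI (13.3 and 42.6 CPM) or with 1 (14.2 and 26.3 CPM), and it was higher among Isl1 or Six3 cells (211 and 191 CPM) and Lhx6-positive cells (96.8 and 58.5 CPM).

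The 4 haemoglobin genes showed the same contrast, with log2 ratios in members of -1.51 for Hbb-bt, -0.915 for Hbb-bs, -0.714 for Hba-a1 and -0.648 for Hba-a2, and of 0.70, 1.34, 1.46 and 1.43 in the other cells. In members the median over these 4 genes was 1.49 among female-pattern and 4.94 among male-pattern cells, so their direction turned within each sex pattern. Members with neither pattern were in neither of these values. Cells with UMIs of 3 or more erythroid genes were 84 Gmnc-/- and 27 wild-type members, and held 21979 of 23058 and 15538 of 15972 erythroid UMIs. Ttr had a log2 ratio of -3.22 in members and of 2.23 in the other cells, and of -1.38 in the other cells without doublet calls.

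Reporter sequences that the gene comparisons did not use were also counted. The feature named Stop-Ai9 had 672 UMIs in Gmnc-/- and 656 UMIs in wild-type members, or 200 and 525 CPM, and 216 and 578 CPM in the other GABAergic cells. The feature named Tomato had 35 and 19 UMIs, and LacZ had 0 in both. The labels name no reporter allele.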

How the results depend on the processing

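No paired analysis was possible because each genotype has 1 library, and for the same reason no replicate could be left out. The count of genes higher in Gmnc-/- members (47) was 10 without doublet calls, 28 without members holding genes of another class, 17 with both and erythroid genes not counted, 97 in female-pattern cells, 339 in male-pattern cells (180 Gmnc-/- and 48 wild-type members), 98 in Foxp2 and Tshz1 members, 110 with a 20 CPM minimum and 217 with only 10 UMIs required. The count of lower genes (33) was 170, 50, 63 and 83 in male-pattern cells, Foxp2 and Tshz1 members, with 20 CPM and with 10 UMIs. The share ratio was 1.25 under the stricter cell filter and 0.783 for Foxp2 and Tshz1 members. The identity list median was 0.14 without doublet calls. The astroglia list median turned to log2 -0.20 without doublet calls, -0.64 without members holding genes of another class and -0.62 with both, but over 2, 1 and 1 genes in place of 4, since the rest fell below 50 CPM. Without doublet calls Slc1a3, Aldoc and Slc1a2 stayed positive (0.34, 0.85 and 0.52) while Fabp7, at 0.019 with all members, was -0.73; with both removals they were 1.03, 0.85, 0.48 and -0.62. Among the recomputed named genes past 2-fold, those that changed direction were C1qb (-0.20 and -0.14 for the first 2, -0.38 in Foxp2 and Tshz1 members), Grm3 (-0.056 without members of another class, -0.43 with both, -1.08 in Foxp2 and Tshz1 members), Ptprk (-0.26 without members of another class, -0.32 with both), Fos (-0.012 without doublet calls, -0.63 with both, -0.60 in Foxp2 and Tshz1 members) and, in male-pattern cells, Reln (1.62) and Cd1d1 (0.27). Cdh10 and Grm5, list genes past 2-fold with all members but not named above, also turned. Cdh10 was at -0.21 without doublet calls and -0.077 with both removals. Grm5 was at -0.32 with both removals and -0.072 in Foxp2 and Tshz1 members. Some smaller values turned too, such as Erbb4 (-0.12 with all members, 0.080 without doublet calls). The share and depth cannot separate genotype from library, and the counts of calls leave out genes under 50 CPM in both libraries, except with the lower minimums. The restriction to Foxp2 and Tshz1 members and the combined removal were chosen after seeing the data. The cause of these shifts was not tested.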
